A study of Homo sapiens with 6 samples.

Results

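Knockdown of SNRPB was set against control transfection over 14019 annotated skipped exons of 6061 genes in MDA-LM2, a derivative of the breast cancer line MDA-MB-231 selected for metastasis to the lung. A skipped exon is a middle exon that can be joined to its neighbours (included) or left out (skipped). An exon was kept with at least 20 informative reads in each of the 2 pools, informative meaning that a read fitted inclusion only or skipping only. Where 15666 events at that depth shared a middle exon, the event with the most informative reads stood for it. In all, 32398 exons had an event in both summaries, and the whole series lists 40658 exons from 47986 events. At the depth limit, 1320 exons had 20 to 24 informative reads in the shallower pool, with a median difference in inclusion of -0.01, and 1653 exons just outside it had 15 to 19, with a median of -0.02.

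Cells were transfected with small interfering RNAs (IDT) by a lipid reagent, and total RNA was taken 48 h later and made into stranded libraries for low input. The control group (siCtrl) has 2 libraries, given as 1 pooled summary. The siSNRPB group has 1 library, although the design text speaks of 2 siRNAs against SNRPB and in 1 place of SNRPB2. Cells given siRNAs against SNRPA1 (siSNRPA1, 3 libraries in 1 pool) were used for side-by-side levels and for a direct test. No group has a replicate value, so every test below compares the reads of 2 pools and not the conditions, and no spread between cultures is known.

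SNRPB encodes SmB and SmB', alternative forms of a protein in the ring of Sm proteins around the small nuclear RNAs of the U1, U2, U4 and U5 particles of the spliceosome. U1 pairs with the 5′ splice site at the end of an exon, U2 with the branch point upstream of the next exon, and U4 and U5 arrive with U6 before the intron is removed. The ring is put together in the cytoplasm by the SMN complex, and SmB levels are known to affect the inclusion of alternative exons, among them one in SNRPB itself.

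The exons below are coding exons that carry the main differences described later. They are shown so that the size and the end of each exon can be seen, and were read from GENCODE 29 transcripts (hg38). Each runs 5′ to 3′ on the strand of its gene, and capitals mark the last 3 exonic bases, the exonic part of the 5′ splice site. The first set fell in the siSNRPB pool, in SNAP23 (chr15:42528262-42528420, plus strand), C1orf43 (chr1:154213893-154213946, minus), SRRM1 (chr1:24663183-24663224, plus), EIF3K (chr19:38632601-38632678, plus), VRK3 (chr19:50009236-50009289, minus), TMEM106C (chr12:47965282-47965345, plus), MRPL42 (chr12:93470486-93470505, plus), AP1B1 (chr22:29329712-29329720, minus) and MAX (chr14:65101546-65101572, minus).
SNAP23: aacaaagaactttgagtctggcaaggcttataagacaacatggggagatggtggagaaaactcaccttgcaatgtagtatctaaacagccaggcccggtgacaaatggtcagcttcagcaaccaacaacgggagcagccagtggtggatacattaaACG
C1orf43: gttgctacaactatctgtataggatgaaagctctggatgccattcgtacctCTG
SRRM1: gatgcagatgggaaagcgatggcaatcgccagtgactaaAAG
EIF3K: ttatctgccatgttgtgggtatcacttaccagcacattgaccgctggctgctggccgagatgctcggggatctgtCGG
VRK3: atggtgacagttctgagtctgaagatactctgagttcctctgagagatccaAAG
TMEM106C: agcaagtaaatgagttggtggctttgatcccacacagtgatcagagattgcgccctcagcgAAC
MRPL42: attcgggcgtacatgtgCAG
AP1B1: gacttaGAG
MAX: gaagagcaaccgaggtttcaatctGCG

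The second set rose, in FN1 (chr2:215392931-215393203, minus strand), SPTAN1 (60 nt, chr9:128592983-128593042, and 15 nt, chr9:128609651-128609665, both plus), MAPK7 (chr17:19380484-19380501, plus), TRIM33 (chr1:114397940-114397990, minus) and MTMR1 (chrX:150712342-150712365, plus).
FN1: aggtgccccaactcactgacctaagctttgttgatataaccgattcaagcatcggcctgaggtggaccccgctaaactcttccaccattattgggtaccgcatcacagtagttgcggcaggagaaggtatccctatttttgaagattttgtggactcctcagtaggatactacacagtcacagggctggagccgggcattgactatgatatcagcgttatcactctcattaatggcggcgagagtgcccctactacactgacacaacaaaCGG
SPTAN1, 60 nt: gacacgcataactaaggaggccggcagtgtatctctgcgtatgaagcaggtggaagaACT
SPTAN1, 15 nt: ctttccaagctgCTG
MAPK7: cccctatggggtcccAGG
TRIM33: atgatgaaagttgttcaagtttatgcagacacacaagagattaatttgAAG
MTMR1: gttttcaggaggcctgatctaAGG

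In U2AF1, which encodes the small subunit of the factor that reads the AG at the 3′ splice site, a pair of neighbouring 67-nt exons moved in opposite directions. The upstream exon (chr21:43101366-43101432, minus strand) fell and the downstream exon (chr21:43100453-43100519, minus) rose. They lie 846 bases apart and hold the same base at 44 of 67 positions (65.7%).
U2AF1 upstream, fell: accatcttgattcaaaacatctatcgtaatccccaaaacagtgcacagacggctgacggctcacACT
U2AF1 downstream, rose: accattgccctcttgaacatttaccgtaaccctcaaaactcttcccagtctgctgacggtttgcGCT

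The label of the knockdown was checked first. Reads that fitted an isoform of the SNRPB event came to 247 per 1000000 such reads in siCtrl (4584 reads), 30.6 in siSNRPB (351) and 337 in siSNRPA1, so the siSNRPB value was 12.4% of siCtrl. The labels give 86% knockdown of SNRPB by quantitative PCR. SNRPA1, which encodes a U2 protein, stood at 118 per 1000000 in siCtrl and 272 in siSNRPB. The 124-nt exon of SNRPB, where 29 of 2885 informative reads were inclusion reads in siCtrl and 4 of 171 in siSNRPB, had a level of 0.01 in both and did not pass. Of 10 genes usual for mesenchymal-like breast cancer lines, 7 had events, CD44 and FOSL1 the highest, and their summed reads were 7026 per 1000000 in siCtrl and 8345 in siSNRPB. The sum over 9 epithelial and luminal genes, 6 with events, was 34.2 and 30.1 in the same order. Leukocyte genes summed to 5.07 and 0, endothelial genes to 0.808 and 0, and fibroblast genes to 3.34 and 2.53. The siCtrl pool was deeper, with 4917271 informative reads over the 14019 exons and a median of 127 an exon, against 3009925 and 72 in siSNRPB. Reads that fitted neither isoform made up a median of 55.2% of an exon's reads in siCtrl and 49.9% in siSNRPB, and the part of depth or of these reads in the differences below was not tested beyond the thinned counts given in the closing section.

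In the siSNRPB pool most exons that changed were skipped more often than in siCtrl. Inclusion fell at 567 exons of 475 genes and rose at 140 exons of 130 genes, and 13312 exons did not pass. The passing share was 5.04% of all exons, made up of 4.04% that fell and 0.999% that rose, so 80.2% of passing exons were lower. The 95% Wilson interval of this share, 77.1 to 83.0%, takes exons as independent, although some share reads. Under the alternative settings of the closing section the share lay between 69.6% and 84.9%. An exon passed when the inclusion level, a fraction from 0 (always skipped) to 1 (always included), differed by at least 0.1 and Fisher's exact test on inclusion and exclusion reads, two-sided, gave a Benjamini-Hochberg adjusted p under 0.05 over all 14019 exons, in the same direction. "Fell" and "rose" are used only of such exons. Room to move was unequal, since 5494 exons stood at 0.95 or over in siCtrl and could not rise by 0.1. Another 2172 stood under 0.05 and could not fall by 0.1. The share of 80.2% is therefore not to be read against an even split. Read counts carry no molecular identifiers, so these p-values and the intervals of single exons cover counting error only.

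**Figure D1:**
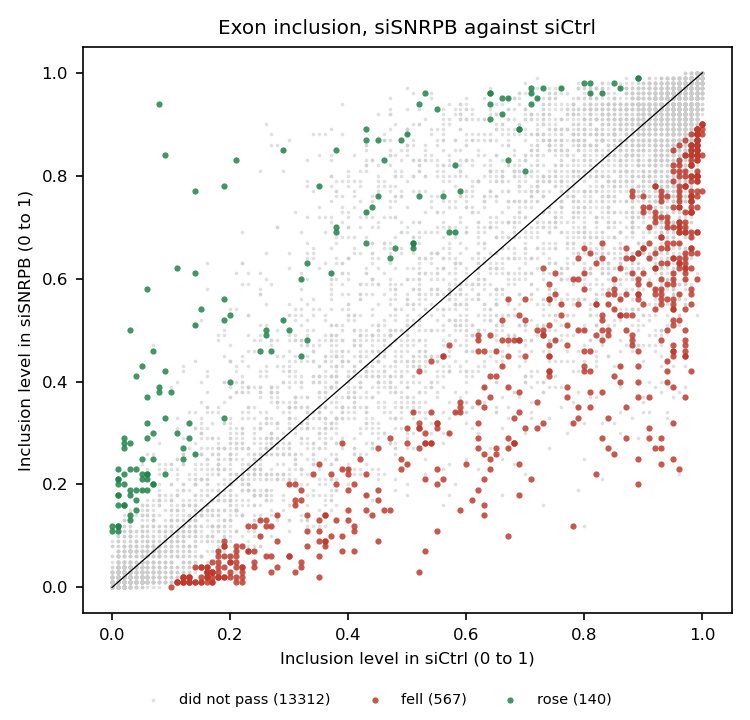
Inclusion level of each of the 14019 exons in siCtrl (x axis, 0 to 1) and in siSNRPB (y axis, 0 to 1), with 1 point an exon. The 567 exons that fell lie below the diagonal and the 140 that rose above it, while the other points lie on both sides.

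The exons that fell had a median inclusion level of 0.81 in siCtrl and 0.47 in siSNRPB. Over all 14019 exons the median level was 0.88 and 0.83, so the exons that fell did not start high for this set. Their median share of inclusion reads among informative reads was 96.6% and 71.7%. The exons that rose started low, with a median level of 0.19 in siCtrl and 0.515 in siSNRPB, and a median share of 52.2% and 86.9%. The difference of 0.1 that a call requires also limits where each set can start. Exons that fell did so by a median of -0.24, and those that rose by 0.21. A difference of 0.4 or more was seen at 84 of the exons that fell and 17 of those that rose. Over all 14019 exons the median difference was only -0.01, with 2143 exons at -0.1 or lower and 1269 at 0.1 or higher, most of which did not pass. In the authors' deposited table, the Bayes factor, the evidence for a difference over that for none, was at least 10 for 476 of the 567 exons that fell and 113 of the 140 that rose. The median level of the same exons in siSNRPA1 was 0.63 for those that fell and 0.315 for those that rose.

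The inclusion level draws on more than the informative reads, and at some exons it moved without them. No exclusion read was seen in either pool at 6961 exons, yet their level differed by 0.1 or more at 1516, 878 of these lower in siSNRPB, and it was under 0.5 in siCtrl at 683. None of these can pass the test on reads. Among exons that passed, the share of inclusion reads changed by under 10 percentage points at 120 that fell and 19 that rose.

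The largest falls were ranked by the smaller of the change in level and the change in read share, among exons that passed and held 50 or more informative reads in each pool. SNAP23, a SNARE of the plasma membrane, came first. Its 159-nt exon, shown above, had an inclusion level of 0.82 in siCtrl (the authors' interval 0.77 to 0.87) and 0.22 in siSNRPB (0.16 to 0.28), with 0.59 in siSNRPA1. Inclusion and exclusion reads were 420 and 29 in siCtrl, and 49 and 60 in siSNRPB, or shares of 93.5% (90.9 to 95.5%) and 45.0% (35.9 to 54.3%), and Fisher's exact test gave an adjusted p of 3.82e-25. A gene on the other strand overlaps this exon, and whether reads were counted by strand is not stated.

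The 54-nt exon of C1orf43 fell from 0.83 (0.78 to 0.87) to 0.29 (0.24 to 0.35), with 383 inclusion and 34 exclusion reads under siCtrl against 94 and 105 under siSNRPB. Its adjusted p was 6.46e-30 (Fisher's exact test), and its level in siSNRPA1 was 0.40. The 78-nt exon of EIF3K, a subunit of translation initiation factor eIF3, fell from 0.63 to 0.16 with 357 inclusion and 17 exclusion reads under siCtrl against 54 and 50 under siSNRPB. In each of these exons the intervals of the 2 pools did not overlap.

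SRRM1, a splicing coactivator rich in serine and arginine, had 112 inclusion and 28 exclusion reads under siCtrl against 33 and 73 under siSNRPB at its 42-nt exon. Its level fell from 0.61 to 0.17 (Fisher's exact test, adjusted p of 3.28e-12). SMN2, a copy of the gene for the protein that loads the Sm ring, fell at a 54-nt exon from 0.55 to 0.20, with 71 and 7 reads in siCtrl and 32 and 37 in siSNRPB. The copy SMN1 fell at its 54-nt exon from 0.74 to 0.45, with 106 and 7 reads against 86 and 37. These near-identical genes have the same exclusion counts in each pool, 7 in siCtrl, 37 in siSNRPB and 78 in siSNRPA1. Their falls are therefore not separate measurements, and the value of each copy is uncertain.

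MLPH, which links a RAB GTPase to a myosin motor, fell at an 84-nt exon from 0.59 to 0.15, with 181 inclusion and 52 exclusion reads under siCtrl against 17 and 33 under siSNRPB. The 86-nt exon of PITPNB, a phosphatidylinositol transfer protein, fell from 0.79 to 0.35, with 186 and 23 reads against 82 and 78. VRK3, a member of the vaccinia-related kinase family, fell at its 54-nt exon from 0.85 to 0.41. These exons had levels of 0.35, 0.42 and 0.64 in siSNRPA1, in the same order.

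USP4, a deubiquitinase, fell at an 89-nt exon from 0.77 to 0.39, with 74 inclusion and 15 exclusion reads under siCtrl against 37 and 42 under siSNRPB. BOD1L1, which protects stalled replication forks, fell at a 141-nt exon from 0.64 to 0.23, and the 206-nt exon of TEX30 fell from 0.65 to 0.27. The 64-nt exon of TMEM106C fell from 0.56 to 0.21. All 102 informative reads of the TMEM106C exon were inclusion reads in siCtrl, against 34 of 84 in siSNRPB, so its read share changed more than its level. A count of 0 exclusion reads in 102 allows a share of up to 2.94%.

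Rises were ranked the same way. SPTAN1 encodes alpha spectrin of the membrane skeleton. Its 60-nt exon rose from 0.46 (0.42 to 0.49) to 0.83 (0.80 to 0.86), with 418 inclusion and 319 exclusion reads under siCtrl against 613 and 85 under siSNRPB (Fisher's exact test, adjusted p of 5.74e-37). FN1 encodes fibronectin, an extracellular matrix protein, and its 273-nt exon is the one known as extra domain B. That exon had 26 inclusion and 48 exclusion reads under siCtrl against 127 and 25 under siSNRPB. Its level rose from 0.06 (0.04 to 0.08) to 0.37 (0.30 to 0.44), Fisher's exact test giving an adjusted p of 2.76e-10, and stood at 0.08 in siSNRPA1.

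PDGFA, a platelet-derived growth factor chain, rose at a 69-nt exon from 0.08 to 0.38, with 13 inclusion and 43 exclusion reads under siCtrl against 46 and 31 under siSNRPB. The kinase ERK5, encoded by MAPK7, gained inclusion of an 18-nt exon from 0.19 to 0.52, with 26 and 104 reads in siCtrl and 35 and 31 in siSNRPB. TRIM33, a ubiquitin ligase of TGF-beta signalling, rose at a 51-nt exon from 0.66 to 0.95, where siSNRPB had 1 exclusion read beside 56 inclusion reads. Levels in siSNRPA1 were 0.06 for PDGFA, 0.28 for MAPK7 and 0.44 for TRIM33.

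The remaining rises of this rank were outside coding sequence or uncertain. RPL17, a ribosomal protein, rose at an 88-nt exon of the 5′ UTR from 0.06 to 0.58, with 7 inclusion and 67 exclusion reads under siCtrl against 51 and 20 under siSNRPB. It has near-identical copies and an overlapping gene on the other strand. NIPA2, a magnesium transporter, rose from 0.19 to 0.78 at an exon of 113 nt in a noncoding transcript. SEC11A, a signal peptidase subunit, rose from 0.32 to 0.60 at a 136-nt exon, and OPTN, an autophagy receptor, from 0.09 to 0.33 at a 152-nt exon, both in the 5′ UTR. The downstream U2AF1 exon rose from 0.38 to 0.70, with 55 and 35 reads in siCtrl and 87 and 15 in siSNRPB. The annotated copy U2AF1L5 has the same read counts, so it is no separate measurement and the 12 rises stand for 11 distinct ones.

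**Figure D2:**
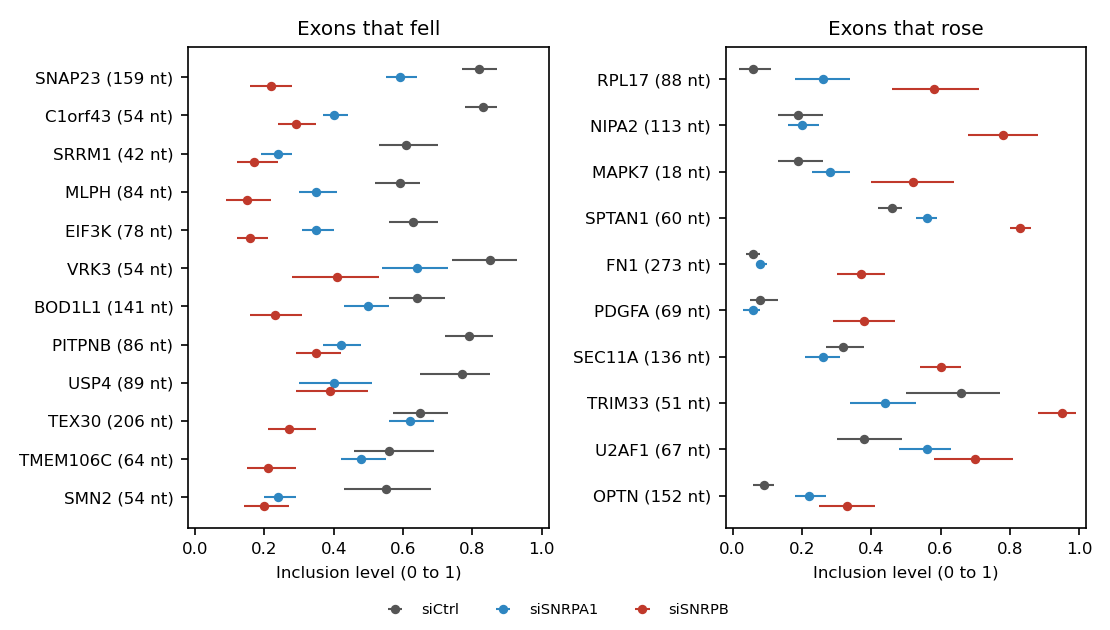
Inclusion level (x axis, 0 to 1) of 12 falls and 10 rises ranked highest, with 1 row a gene and a point for each of the siCtrl, siSNRPB and siSNRPA1 pools. Bars are the authors' intervals around the level, whose width is not stated. SNAP23 goes from 0.82 to 0.22 and SPTAN1 from 0.46 to 0.83 with bars that do not overlap.

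The siSNRPB and siSNRPA1 pools were compared directly at exons with 20 informative reads in both, 13939 of the 14019. Of these, 4.23% passed, 2.63% lower and 1.6% higher in siSNRPB. Of the 12 falls, 8 were lower in siSNRPB than in siSNRPA1 by this test, and SRRM1, PITPNB, USP4 and SMN2 did not pass. Of the 12 rises, 9 were higher in siSNRPB, and OPTN, U2AF1 and its copy did not pass. These exons were chosen for the size of their change in siSNRPB, so the counts are a description and nothing is read from their height over the share of all exons. The FN1 exon had an adjusted p of 1.04e-13 and the TEX30 exon, at 0.27 against 0.62, one of 2.80e-08 (Fisher's exact test). USP4, at 0.39 and 0.40, had an adjusted p of 1.

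Some exons had no exclusion read at all in control cells and were skipped in the knockdown. Of 7967 exons with no exclusion read in siCtrl, 174 fell, and 326 had at least 5 exclusion reads in siSNRPB. That is a smaller share of falls than the 4.04% over all exons. The read share of such exons can only go down. In the other direction 283 exons had at least 5 exclusion reads in siCtrl and none in siSNRPB. Of 7901 exons with no exclusion read in siSNRPB, 36 rose, a smaller share than the 0.999% over all exons. The siSNRPB pool was shallower, so a count of 0 came more easily there, and 326 and 283 are not like counts. MFSD1, a lysosomal transporter, fell from 0.97 to 0.46 at a 134-nt exon, where exclusion reads went from 0 of 213 informative reads to 10 of 56. NUP98, a part of the nuclear pore, fell at a 131-nt exon from 0.93 to 0.48, with 0 of 150 and 10 of 57. BLOC1S5, of a complex for lysosome-related organelles, fell from 0.95 to 0.51, with 0 of 56 and 19 of 72.

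ACOT9, a mitochondrial acyl-CoA thioesterase, fell from 0.83 to 0.38, with 0 of 86 exclusion reads in siCtrl and 8 of 52 in siSNRPB. AMZ2, a metallopeptidase, fell from 0.94 to 0.50, with 0 of 219 and 6 of 80, a call lost by read share, meaning with the share of inclusion reads in place of the level. At the depth of the siCtrl pool, a count of 0 allows an exclusion share of up to 1.41% for MFSD1, 1.37% for AMZ2, 3.49% for ACOT9 and 5.36% for BLOC1S5. MFSD1 kept 0 exclusion reads in siSNRPA1 too, beside 153 inclusion reads, and differed directly from siSNRPB (Fisher's exact test, adjusted p of 7.79e-05).

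Very short exons moved in both directions. Among 252 exons of up to 30 nt, 8 fell and 3 rose. MRPL42, a protein of the mitochondrial ribosome, had 18 inclusion and 10 exclusion reads under siCtrl at its 20-nt exon and 0 and 27 in siSNRPB, and its level fell from 0.52 to 0.03. MAX, the DNA-binding partner of MYC, fell at a 27-nt exon from 0.36 to 0.08, with 54 and 38 reads against 9 and 58, while siSNRPA1 stood at 0.33. AP1B1, a subunit of the AP-1 clathrin adaptor, fell at a 9-nt exon from 0.62 to 0.19, and siSNRPA1 stood at 0.20.

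MAPK1IP1L fell at a 22-nt exon from 0.70 to 0.45. MTMR1, a phosphoinositide phosphatase, rose at a 24-nt exon from 0.13 to 0.29, with 75 inclusion and 421 exclusion reads under siCtrl against 139 and 288 under siSNRPB. A second SPTAN1 exon, of 15 nt, rose from 0.02 to 0.16, with 3 and 135 reads against 19 and 77. Both SPTAN1 exons and MTMR1 were higher in siSNRPB than in siSNRPA1 by the direct test, with adjusted p of 1.31e-22, 2.61e-04 and 1.55e-05 (Fisher's exact test).

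At the other end of the size range, 10 of 679 exons over 500 nt fell and 1 rose. ASPM, a mitotic spindle protein, has a 4755-nt exon with 7156 inclusion and 46 exclusion reads under siCtrl against 1684 and 79 under siSNRPB. Its level fell from 0.70 to 0.31, but its read share only from 99.4% to 95.5%, a change of under 10 percentage points. TROVE2, the Ro RNA-binding protein, fell at a 601-nt exon from 0.84 to 0.55, with 918 and 38 reads against 479 and 98. FAM86EP, a pseudogene with near-identical copies, fell from 0.67 to 0.29. TRIM16, a ubiquitin ligase, rose from 0.83 to 0.96 at an exon that a gene on the other strand overlaps, a call lost by read share and by Bayes factor.

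Exon classes were described by their passing shares, beside 4.04% fell and 0.999% rose over all exons. By size, 3.17% of exons up to 30 nt fell, 5.51% of those of 31 to 60 nt, 4.47% of those over 60 and up to 120 nt, 3.93% of those over 120 and up to 200 nt, 3.35% of those over 200 and up to 500 nt and 1.47% of those over 500 nt. The share that rose lay between 0.878% and 1.47% in all size classes but the longest, at 0.147%. By place, 3.97% of 8937 coding exons fell and 0.839% rose, while 5.22% of 957 exons within the 5′ UTR fell and 2.19% rose. The largest share of falls by place, 6.37%, was among 408 exons with no exact match in the annotation. This order turned among exons with at least 5 inclusion and 5 exclusion reads over the 2 pools, a filter chosen after the data were seen. There 21.2% of coding exons fell, 13.4% of 5′ UTR exons and 17.2% of those with no exact match. Rises were 5.13%, 4.74% and 5.75% in the same order. These are descriptions with no test, and exons of 1 gene are not independent.

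Passing shares differed with the starting level, which also limits how far an exon can move. Of 2172 exons with a siCtrl level under 0.05, none could fall by 0.1, and 1.43% rose. Falls made up 6.10% of exons at 0.05 to 0.3, 7.51% at 0.3 to 0.7, 5.70% at 0.7 to 0.95 and 3.00% at 0.95 and over. Among exons with at least 5 inclusion and 5 exclusion reads over the 2 pools, a filter chosen for this purpose after the data were seen, the shares that fell were 9.49%, 23.6%, 28.1% and 29.5% in the same order. That filter also lets an exon in through skipping in siSNRPB alone.

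Coding exons whose length is a multiple of 3 fell more often than those that shift the reading frame, 4.70% of 4273 against 3.30% of 4664, and rose more often too, 1.29% against 0.429%. With at least 5 reads of each kind the order of the falls turned, with 257 of 1243 (20.7%) against 185 of 841. The rises kept theirs, at 5.95% and 3.92%. Flanking introns were longer for exons that fell, with medians of 2688 nt upstream and 2353 nt downstream, against 2222 and 2025 nt for all exons and 1849.5 and 1451 nt for exons that rose. The median exon length was 114 nt for falls, 111.5 nt for rises and 124 nt for all, and the median GC content 48.1%, 49.8% and 49.1%.

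Sequence at the exon's end separated the classes little. Of the 13611 exons that match an annotated exon (97.1%), 10936 end in G, the usual last base before the 5′ splice site, and 3.87% of these fell against 4.41% of the 2675 that end in another base. Of the 7612 that end in AG, 3.82% fell, against 4.17% of the 5999 others. Among the sequences printed above, SNAP23, C1orf43 and MAX end in G, and the upstream U2AF1 exon and TMEM106C do not.

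**Figure D3:**
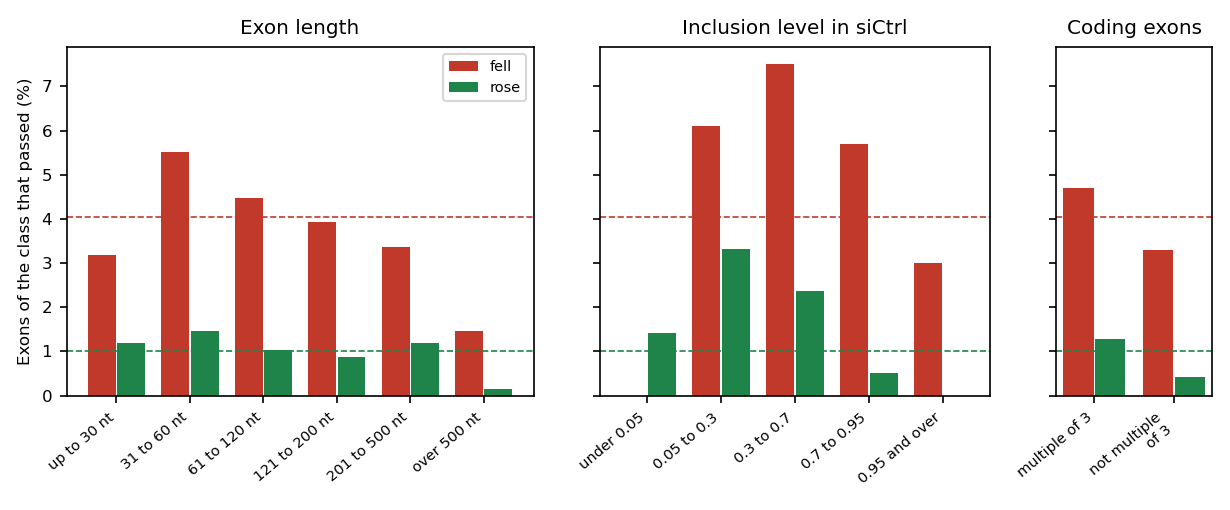
Percent of exons of a class that fell (red bars) and that rose (green bars) in the siSNRPB pool (y axis, percent), for classes by exon length, by inclusion level in siCtrl and, for coding exons, by frame. Dashed lines mark 4.04% and 0.999%, the shares over all exons. Falls reach 7.51% at a siCtrl level of 0.3 to 0.7. No exon could rise by 0.1 at 0.95 and over, or fall by 0.1 under 0.05.

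Of 589 genes with a passing exon, 103 had more than 1. All passing exons fell in 79 of these, all rose in 8, and 16 had exons in both directions. The 16 take in the copy U2AF1L5, with the reads of U2AF1, and KMT5A, where the opposite calls are forms of 1 exon. Forms of 1 exon also add to the 103. SPG7, a mitochondrial protease, had 5, 2 of which fell (0.88 to 0.48 and 0.88 to 0.47) and 3 of which rose (0.06 to 0.29, 0.04 to 0.19 and 0.04 to 0.15). Both SPG7 falls are forms of 1 exon with the same 10 exclusion reads in siCtrl and 9 in siSNRPB, and the last 2 rises are forms of 1 exon with the same 90 and 28. The read share of the SPG7 falls went from 97.4% to 88.0% and from 97.4% to 88.8%, and neither passed by read share. DAG1, which encodes dystroglycan, the receptor that ties the matrix to the cytoskeleton, had 4 exons that fell, from 0.63 to 0.21, from 0.60 to 0.24 and from 0.30 to 0.06 for the last pair. The DAG1 exons share their 10 exclusion reads in siCtrl and 29 in siSNRPB, and several are forms of 1 exon with other ends, so they are not separate measurements. The same holds for 3 falling forms in AZIN1, a regulator of polyamine synthesis, from 0.50 to 0.31 at most, and in SARAF, a regulator of store-operated calcium entry, from 0.78 to 0.60 for its deepest form.

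SKA2, of the spindle and kinetochore complex, had 3 falling exons, of which those of 177 and 197 nt are forms of 1 exon with the same exclusion reads, 164 in siCtrl and 108 in siSNRPB. Its 87-nt exon fell from 0.93 to 0.72, with exclusion reads of 1 of 185 in siCtrl and 20 of 140 in siSNRPB. The join that skips the forms of 177 and 197 nt is counted as inclusion of the 87-nt exon. The SKA2 falls are therefore not separate measurements. MFF, the receptor for mitochondrial fission, rose at a 112-nt exon of the 5′ UTR from 0.81 to 0.96, and fell at the next exon, of 221 nt, from 0.80 to 0.66. The join that skips the 112-nt exon is counted as inclusion of the 221-nt exon, so these movements are not separate measurements. Another MFF exon, of 159 nt, fell from 0.52 to 0.31. The first 2 MFF calls were lost by read share, and the last by Bayes factor and with siCtrl thinned to the depth of siSNRPB.

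The genes with exons in both directions were listed after their values were seen. In ARHGEF7, AURKA and FBXW11, as in MFF above, a join counted as skipping of an exon is counted as inclusion of the exon that moved oppositely. The opposite movements in these genes are therefore not separate measurements. The upstream U2AF1 exon fell from 0.73 to 0.49, with 180 inclusion and 34 exclusion reads under siCtrl against 54 and 28 under siSNRPB (Fisher's exact test, adjusted p of 0.0190), while its neighbour rose as given above (Fisher's exact test, adjusted p of 0.00346). Levels in siSNRPA1 lay between the other pools for both, at 0.63 and 0.56. In ARHGEF7, an exchange factor for RAC and CDC42, an 85-nt exon rose from 0.85 to 0.98, and the exon after it, of 131 nt, fell from 0.88 to 0.49, with 157 and 8 reads in siCtrl and 80 and 35 in siSNRPB.

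AURKA, a mitotic kinase, fell at a 110-nt exon of the 5′ UTR from 0.84 to 0.27 and rose at the next, of 195 nt, from 0.09 to 0.84, the latter with only 20 and 23 informative reads. PCMTD1 had the largest difference among the exons that rose, from 0.08 to 0.94 at 192 nt of a noncoding transcript, with 5 inclusion and 26 exclusion reads under siCtrl against 43 and 0 under siSNRPB. FBXW11, a substrate receptor of a ubiquitin ligase, fell at a 63-nt exon from 0.82 to 0.55 and rose at a 102-nt exon from 0.01 to 0.18. NEDD4L, a ubiquitin ligase of ion channels, rose at a 60-nt exon from 0.00 to 0.11, with 0 inclusion reads of 114 in siCtrl and 23 of 107 in siSNRPB.

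**Figure D4:**
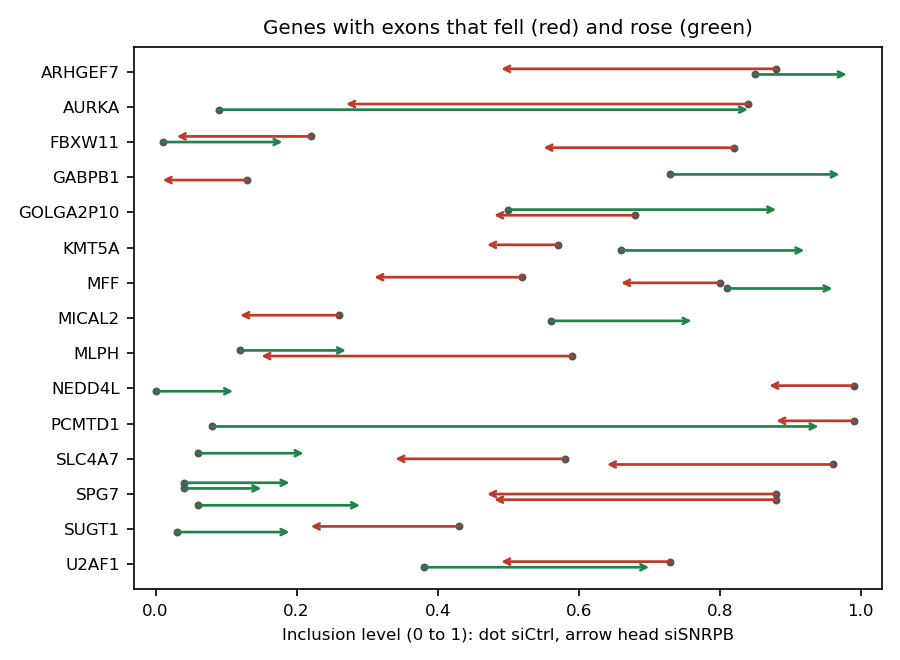
Inclusion level (x axis, 0 to 1) of the passing exons of genes with exons in both directions, with 1 row a gene and 1 arrow an exon, from a dot at the siCtrl level to the siSNRPB level. Red arrows to the left are falls and green arrows to the right rises, as for ARHGEF7, where 1 exon goes from 0.88 to 0.49 and 1 from 0.85 to 0.98. Both ARHGEF7 arrows draw on reads of a shared join and are not separate measurements. The copy U2AF1L5 is left out.

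Gene lists were described by how many of their exons passed, beside 5.04% and a median difference of -0.01 over all exons. Exons of the same gene were counted separately, although some share reads. Of 53 exons in genes of the Sm ring and its assembly, 4 fell, 1 rose and 48 did not pass (median difference -0.01). SMN1 and SMN2 are among the falls, with the same exclusion counts, so they are not separate measurements. LSM2, of the related ring on U6, rose at a 68-nt exon from 0.71 to 0.94, with 68 and 18 reads in siCtrl and 35 and 0 in siSNRPB.

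Of 62 exons in genes of the U1 particle and 5′ splice site factors, 2 fell, both in PRPF39, and 1 rose (median 0). PRPF39, a U1-associated protein, fell at a 335-nt exon from 0.18 to 0.07. RBM10, an RNA-binding regulator of splicing, rose from 0.48 to 0.66 at a 231-nt exon, where exclusion reads went from 35 of 189 to 0 of 80, but the authors' deposited Bayes factor was only 0.83. In the list of the U4/U6.U5 tri-snRNP, the Prp19 complex and step helicases, 2 of 59 exons fell and none rose (median 0). PRPF18, which acts in the second step, fell from 0.21 to 0.07 and ISY1 from 0.96 to 0.71. Both calls were lost by Bayes factor (7.30 and 6.58 in the authors' deposited table) and with siCtrl thinned to the depth of siSNRPB, and ISY1 also by read share. A gene on the opposite strand overlaps the PRPF18 exon.

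SR proteins and their cofactors had 8 falls and 1 rise among 102 exons (median 0). SRSF10, a splicing regulator that responds to dephosphorylation, fell at a 51-nt exon from 0.87 to 0.29, with 39 and 0 reads in siCtrl and 10 and 12 in siSNRPB. RSRP1, an arginine- and serine-rich protein, fell from 0.67 to 0.10, the level it also had in siSNRPA1. Among the kinases that phosphorylate such proteins and their relatives, 2 of 31 exons fell and 1 rose (median 0). DYRK1A fell at an 86-nt exon from 0.97 to 0.45, with 93 and 0 reads against 29 and 12. Its siSNRPA1 level was 0.95, and the direct Fisher's exact test gave an adjusted p of 6.80e-05. DYRK3 fell from 0.18 to 0.04 and CLK4 rose from 0.76 to 0.97, a call lost after thinning.

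Genes of mRNA export, the exon junction complex and nonsense-mediated decay had 1 fall and 1 rise among 99 exons (median -0.01). MAGOH, a core junction protein, fell from 0.99 to 0.89, and DDX19A, an export helicase, rose from 0.01 to 0.23. The MAGOH read share went only from 100% to 96.0%, and its call was lost by read share, by Bayes factor and after thinning. The DDX19A exon overlaps a gene on the opposite strand and had 20 informative reads in siSNRPB. In the list of mRNA 3′ end processing 1 of 54 exons fell (median -0.015), a 27-nt exon of FIP1L1, from 0.40 to 0.15. Of 131 exons in genes of translation initiation and elongation factors, 2 fell and 2 rose, both rises in EIF3E (median 0). Besides EIF3K, the elongation factor subunit EEF1D fell from 0.92 to 0.78, while EIF3E rose from 0.07 to 0.30. The EEF1D read share went from 98.6% to 94.1%, so its call was lost by read share, and that of EIF3E was lost after thinning. Of 124 exons in helicase genes, 4 fell and 2 rose (median 0), among them DHX40 from 0.98 to 0.62, DDX42 from 0.99 to 0.60 and DDX55 from 0.97 to 0.62. All 3 had 0 exclusion reads in siCtrl. In siSNRPB exclusion reads were 8 of 31 for DHX40, only 4 of 37 for DDX42 and 12 of 62 for DDX55. The DDX42 read share went from 100% to 89.2%, and the DDX55 exon lies in a noncoding transcript.

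In membrane traffic, 13 of 382 exons in genes of SNAREs, sorting and coat proteins fell and 3 rose (median -0.01), with SNAP23 the deepest of the falls. VPS13B, a lipid transfer protein of the Golgi, fell from 0.89 to 0.46, and RAB11FIP3, an effector of RAB11 that the name pattern of the list took in, rose from 0.29 to 0.85. Of 192 exons in solute carrier genes, 9 fell and 2 rose (median 0). SLC35B3, a sulfate donor transporter of the Golgi, fell from 0.95 to 0.25 with 26 and 0 reads in siCtrl and 5 and 15 in siSNRPB, and stood at 0.96 in siSNRPA1. SLC7A2, a cationic amino acid transporter, fell from 0.97 to 0.48 and SLC30A5, a zinc transporter, rose from 0.52 to 0.94. SLC35B3 and SLC30A5 overlap a gene on the other strand.

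MAP kinase, Hippo and NF-kB signalling had 8 falls and 3 rises among 135 exons (median -0.01). IKBKB, the kinase that releases NF-kB, fell at a 62-nt coding exon from 0.96 to 0.23. Its informative reads were 83 inclusion and 0 exclusion in siCtrl, 8 and 13 in siSNRPB, and 72 and 0 in siSNRPA1, and it was lower in siSNRPB by the direct test (Fisher's exact test, adjusted p of 2.54e-08). MAP3K7, the kinase TAK1, rose at an 81-nt exon from 0.19 to 0.56 and stood at 0.46 in siSNRPA1.

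Of 522 exons in ubiquitin ligase and deubiquitinase genes, 23 fell and 8 rose (median -0.01). The conjugating enzymes UBE2D4 and UBE2F fell from 0.89 to 0.40 and from 0.65 to 0.26, and UBE2D4 overlaps a gene on the other strand. In nuclear pore and transport genes 6 exons fell, none rose and 115 did not pass (median 0), NUP98 among the falls. POM121C fell from 0.81 to 0.46, with near-identical copies, and IPO7, an import receptor, from 0.64 to 0.49, a call lost by read share. Kinesin, dynein and centrosome genes had 5 falls and 1 rise among 283 exons (median -0.01). PLK4, which starts the duplication of centrioles, fell from 0.94 to 0.56, CEP192 fell from 0.28 to 0.09, and STIL rose from 0.20 to 0.53. The PLK4 call was lost after thinning.

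Genes of the mitochondrial ribosome and of aminoacyl-tRNA synthetases had 12 falls and 1 rise among 199 exons (median -0.01). Not all of these synthetases are mitochondrial, FARSB being one that is not. HARS2, the mitochondrial histidyl-tRNA synthetase, fell from 0.93 to 0.29, with 61 and 0 reads in siCtrl and 21 and 7 in siSNRPB, and FARSB fell from 0.36 to 0.09. Of 308 exons in genes of the respiratory chain, ATP synthase and mitochondrial dynamics, 8 fell and 5 rose (median 0). SPG7 and MFF account for 4 of the falls and 4 of the rises, overlapping SPG7 forms that share exclusion reads counted separately. TIMM50, an import channel subunit, fell from 0.89 to 0.57, and NDUFB5, of complex I, from 0.88 to 0.64. The TIMM50 call was lost by Bayes factor (9.26 in the authors' deposited table) and after thinning.

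**Figure D5:**
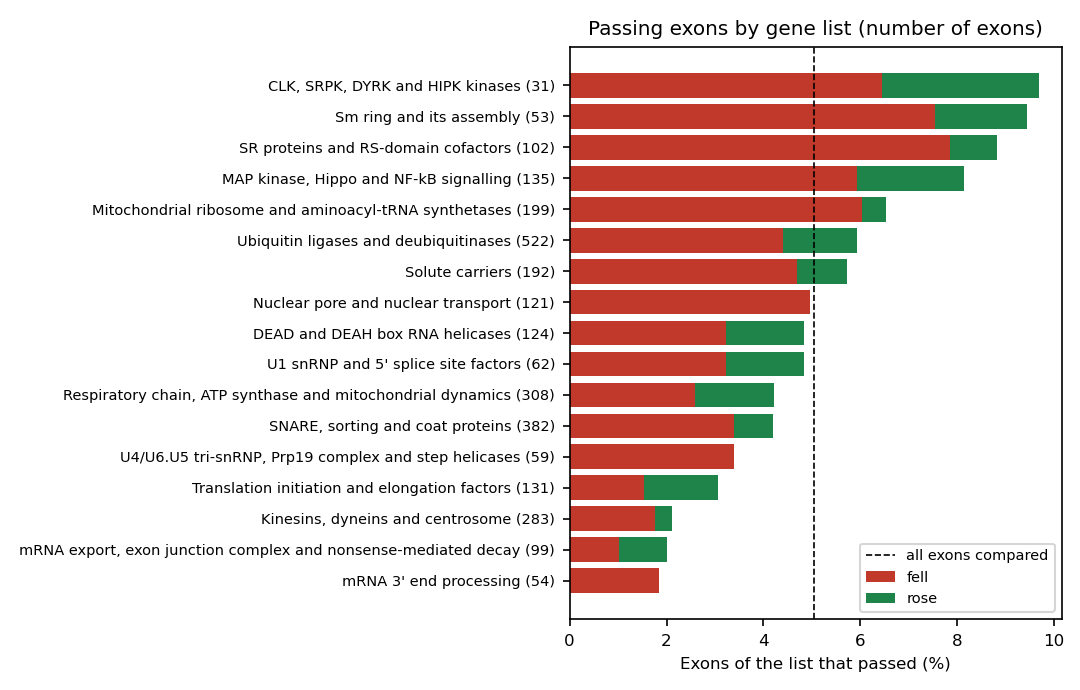
Percent of exons that passed in each of 17 gene lists (x axis, percent of the exons of the list), split into falls and rises, with a dashed line at 5.04%, the share over all exons. SR proteins and their cofactors stand at 8.82% and mRNA 3′ end processing at 1.85%.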

How the data were processed

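Total RNA of MDA-LM2 cells was sequenced, and for each group the authors deposited 1 table of skipped-exon events, whose column names are those of MISO. Per the file headers it holds the inclusion level, a posterior mean given as a fraction, the bounds of an interval of unstated width, and read counts by isoform class. A further table, also deposited by the authors, holds the change in level (a score between -1 and 1) and the Bayes factor, which is the ratio of evidence for against no change. The submitters' processing notes name STAR 2.7 and hg38, with no role. The caller's settings, the strand setting and the way libraries were pooled were not given in the sources used here.

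The 14019 exons were tested with 20 informative reads in each pool and no filter on the rarer kind of read, since such a filter lets an exon in through the pool where that read is common. Fisher's exact test was two-sided with Benjamini-Hochberg adjustment over all exons, and the deposited differences matched those of the levels in 14019 exons within 0.011. The test was checked on simulated data. Depth was a median of 127 informative reads an exon in siCtrl and 72 in siSNRPB. With 1 table a group there is no replicate, and Wilson intervals (95%) of read shares cover counting error only. A count of 0 was read as allowing up to 3.

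Exons and lists were chosen with earlier results of these data known. Named exons were the 12 largest falls and rises with 50 informative reads in each pool (by the smaller change of level and read share, 1 per gene), up to 3 passing exons of each of 18 gene lists, the 6 genes with most passing exons, exons of SNRPB and SNRPA1, the 5 largest falls with no exclusion read in siCtrl, and up to 4 exons of up to 30 nt and 3 over 500 nt each way. The exon of 1 gene and 1 of the lists are not reported here. Genes, places and sequences came from GENCODE 29. A gene on the opposite strand overlaps 35 of the falls and 16 of the rises, which are uncertain. Alternatives changed the read minimum, the size of the difference, the measure, the depth, the counts, the exons kept and the evidence. Scripts ran under Python 3.11.15, with pandas 2.3.3, numpy 2.4.6 and scipy 1.17.1.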

Additional observations from a re-analysis of the deposited data

How the results depend on the processing

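Against 707 changed exons (567 fell, 140 rose), a minimum of 50 informative reads left 438 (360 and 78), a difference of at least 0.2 left 424 (343 and 81), read counts divided by 2 left 186 (158 and 28) and 1 exon per gene left 303 (255 and 48). A Bayes factor of at least 10 in the authors' deposited table, in place of Fisher's exact test, gave 1209, with 368 rises and 69.6% lower, and 589 of the 707 were among them. A minimum of 10 reads gave 940, a filter of 5 inclusion and 5 exclusion reads 904, the read share in place of the level 790, siCtrl thinned to the depth of siSNRPB 503, and no opposite-strand overlaps 658. No exon that passed changed direction, but these settings could hardly have shown it. A call already required level and read share to agree in direction, and most settings leave both as they were. Of 100 named exons, 64 were lost with counts divided by 2, 23 at 0.2, 13 by read share, 11 after thinning and 9 by Bayes factor. Direct differences from siSNRPA1 at the 24 ranked exons went from 17 to 11 with counts divided by 2. With 50 informative reads the lists together went from 154 to 85 passing exons, SR proteins from 9 to 4, CLK and related kinases from 3 to 1, mRNA export from 2 to 1, translation factors from 4 to 2, SNARE and sorting from 16 to 6, kinesins and centrosome from 6 to 1, the mitochondrial ribosome from 13 to 5, solute carriers from 11 to 4, helicases from 6 to 2 and MAP kinase from 11 to 5. At a difference of 0.2 coding exons went from 430 to 264, 5′ UTR exons from 71 to 46, exons of up to 60 nt from 87 to 57, those over 500 nt from 11 to 7 and multiples of 3 from 256 to 145. The ratio of the percent that fell, multiples of 3 over other coding exons, turned from 1.42 to 0.940 with 5 reads of each kind, a setting for classes chosen after seeing the data, and the cause was not tested. That for rises went from 3.00 to 1.52. No paired analysis was possible because each group is 1 pooled table, and for the same reason no library could be left out.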
